A study of Mus musculus with 186 samples.

Results

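The genes described are those of the protein subunits of the cytosolic ribosome, taken from the symbols of the deposited count table. A gene was a member when its symbol was Rpl or Rps with a number and at most an ending of a, l, x or l1, or was Rplp0, Rplp1, Rplp2 or Rpsa. The rule found 83 of 28338 symbols, 52 of the large and 31 of the small subunit. Of these, 76 are canonical subunits and 6 are paralogs, expressed copies of a subunit with a gene of their own (Rpl3l, Rpl7l1, Rpl10l, Rpl22l1, Rpl39l and Rps27l). The remaining member, Rpl6l, is annotated as a processed pseudogene. The low-count filter kept 80 members in every comparison, and the 3 that it removed were Rpl10l, Rpl39l and Rpl6l.

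The cytosolic ribosome joins a small subunit, which reads the messenger RNA, to a large subunit, which forms the peptide bond. Its proteins are made in matched amounts, and many of their messenger RNAs begin with a C and a run of pyrimidines, the 5′ terminal oligopyrimidine (TOP) tract, through which the kinase mTORC1 controls their translation. In brain, these messenger RNAs are abundant in neurons and glia alike and are also carried into axons and dendrites.

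The study sequenced the RNA of mouse brain tissue in bulk, in 186 libraries from 6 regions, 2 ages and 3 genotypes at the Akap11 locus. The cortical regions are prefrontal (PFC) and somatosensory (SSC), and the others are hippocampus (HP), striatum (STR), thalamus (TH) and substantia nigra (SN). The ages are 4 weeks (96 libraries) and 12 weeks (90 libraries), and the genotypes are WT, Akap11 +/- (HET) and Akap11 -/- (KO). Of the 36 groups, 30 held 5 libraries and 6 held 6. The sources used here do not give the strain, the sex or the form of the mutant allele, and the labels name no treatment. At 4 weeks, 19 of 21 library numbers within a genotype recur in more than 1 region. The labels do not say whether these are the same animal, so counts over the 6 regions are not counts of independent readings. In bulk tissue, fewer cells of a type and less RNA per cell cannot be told apart.

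Akap11 encodes an anchoring protein that tethers protein kinase A. Its level ranged from 11.9 to 24.6 CPM (counts per M of library depth, M for mega) in KO libraries, from 89.0 to 225 CPM in HET and from 43.6 to 437 CPM in WT. KO and HET libraries did not overlap, and the lowest WT value, from the SN library numbered 92 at 4 weeks, lay below every HET library. That library is called the library labelled WT 92 below, and the results of SN at 4 weeks are also given without it. Akap11 was lower in KO than in WT in 12 of 12 comparisons, with log2 fold changes from -4.30 to -3.65, and in HET in 10 of 12, with log2 fold changes from -0.99 to -0.69 over the 12. In HET it missed the threshold in HP and SN at 4 weeks (adjusted p = 0.273 and 0.548, edgeR's quasi-likelihood test with Benjamini-Hochberg adjustment). Library totals ran from 20.8 to 73.3 M counts, and the members took between 0.679% and 2.45% of them, with a median of 0.941%. Without the library labelled WT 92 the highest share was 1.47%.

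The start sites of 62 members were found in the RefSeq promoter table, which is on GRCm38.p6. A C followed by at least 4 pyrimidines, beginning within 10 bases either side of the annotated start on the gene's own strand, was present for 39 of these 62 (62.9%), against 34.4% of 27025 symbols in the table. A member with several start sites counted when any of them matched. The match describes letters only and marks no mapped transcription start. Rps24 has a further window, which holds no tract and is not shown. The sequences below run from 40 bases before the start to 20 bases from it, with the tract in capitals. Rps6 is shown because the text follows it through genotype and age. Rpl31 and Rps24 are among the members with the largest age change in WT. Rplp0 and Rpl7l1 are shown because their level moved little with age and their windows hold no such tract. This choice shows no pattern over the members: of the 60 tested members with a window, 11 of 37 with a tract and 7 of 23 without rose with age in 6 of 6 regions, as described below. Their median log2 changes were 0.31 and 0.34. Rps2 and Rpl3l have a tract and rose in 0 regions, and Rpl5, Rpl11, Rpl23, Rpl26, Rpl37 and Rpl37a have none and rose in 6 of 6. They lie at chr4:86857348-86857407 on the minus strand (Rps6), chr1:39367811-39367870 on the plus strand (Rpl31), chr14:24490638-24490697 on the plus strand (Rps24), chr5:115559427-115559486 on the plus strand (Rplp0) and chr17:46782637-46782696 on the minus strand (Rpl7l1).
Rps6: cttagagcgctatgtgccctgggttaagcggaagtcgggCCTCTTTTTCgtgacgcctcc
Rpl31: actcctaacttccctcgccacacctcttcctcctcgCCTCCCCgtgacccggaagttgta
Rps24: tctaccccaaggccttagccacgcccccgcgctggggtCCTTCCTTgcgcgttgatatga
Rplp0: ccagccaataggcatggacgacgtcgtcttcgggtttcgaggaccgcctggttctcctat
Rpl7l1: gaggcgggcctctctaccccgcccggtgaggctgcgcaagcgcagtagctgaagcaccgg

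A set of 16 libraries stood apart in the members' levels, all of them at 4 weeks. Whole numbers made up no more than 5.55% of the nonzero values in each of these and 17.3% or more in each of the other 170. They comprise 7 WT, 5 HET and 4 KO libraries. They are called the low-whole-number libraries here. In 16 of 16, the mean log2(CPM + 1) of the 80 tested members was above that of every library of the same group outside the set. The difference from the mean of those libraries ran from 0.17 to 1.76, with a median of 0.41. As a percent of all counts, which uses no scaling factor, 13 of 16 were above every such library, and the ratio to their mean ran from 0.924 to 2.67 with a median of 1.11. TMM scaling factors were 0.775 to 0.941 in the set and 0.919 to 1.11 in the other libraries at 4 weeks.

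**Figure D1:**
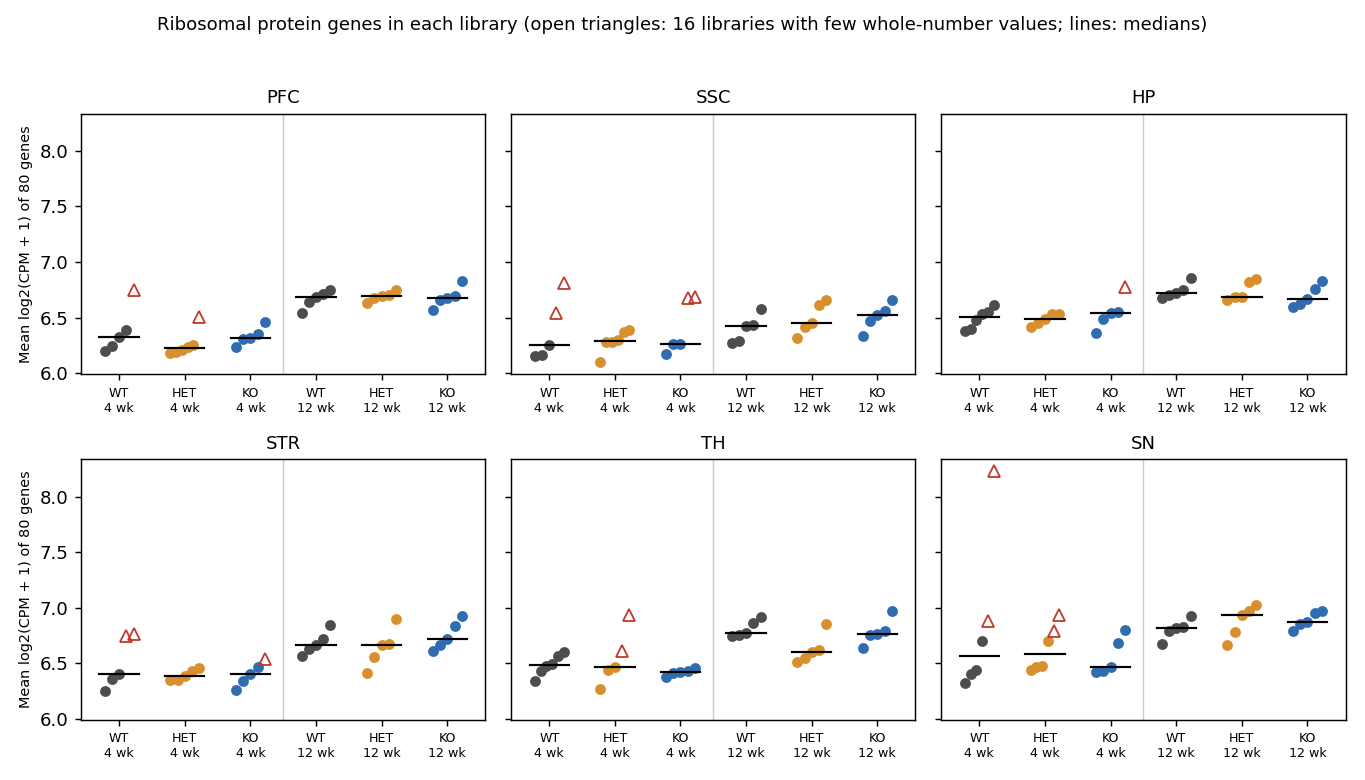
Mean log2(CPM + 1) of the 80 tested ribosomal protein genes in each library, by region, age and genotype, with the 16 low-whole-number libraries marked. Marked libraries lie at the top of their groups, and the library labelled WT 92 in SN at 4 weeks stands at 8.23.

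In the fit of these 16 against the other libraries at 4 weeks, with region and genotype in the model, 75 of 80 members were higher and 1 was lower. Of all genes tested, 19.3% were higher and 20.4% lower. The median log2 difference was 0.56 for the members and -0.07 for all genes. With scaling by library totals alone, 71 members were higher and 7 lower. The members' median was then 0.24 against -0.38 for all genes. The gap between both medians was 0.62, against 0.63 under TMM scaling. A scaling factor acts on all genes of a library alike, so this gap cannot test the scaling. Without the library labelled WT 92, 75 were higher and 2 lower, with a median of 0.43. The shares of all genes called in these alternatives are not given here.

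The rise covered each role in the ribosome. Rplp1, an acidic protein of the stalk that recruits elongation factors, was higher by 0.73 ± 0.07 (SE) on the log2 scale, and Rps29, a small-subunit zinc-binding protein, by 0.74 ± 0.06. Rps6, the target of the S6 kinases, was higher by 0.59 ± 0.05, and Rpl5 and Rpl11, which carry the 5S RNA, by 0.49 ± 0.05 and 0.55 ± 0.06. Rps27a, made as a fusion to ubiquitin, was higher by 0.67 ± 0.10. Rpl3l, the muscle paralog of Rpl3, was the member that fell, by 0.55 ± 0.20 (adjusted p = 0.0239, edgeR). The members that did not pass were Rps27 (-0.37), Rpl7l1 (0.03), Rps27l (0.11) and Rpl27 (0.14).

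Other gene groups moved in the same libraries. Higher levels were called for 60 of 61 nuclear genes of oxidative phosphorylation, 13 of 13 messenger RNAs of the mitochondrial genome, 37 of 39 translation factors and 48 of 77 mitochondrial ribosomal proteins. Ribosome biogenesis factors moved either way, with 11 of 40 higher and 8 lower. Of 10 oligodendrocyte markers, 7 were higher, as were 5 of 8 astrocyte, 5 of 8 microglia and 1 of 7 endothelial markers. Among neuron markers, 1 of 13 striatal, 1 of 9 cortical and hippocampal, 1 of 8 dopamine and 0 of 8 thalamic were higher. With scaling by library totals alone, several of these counts changed. The mitochondrial ribosomal proteins then had 0 higher and 56 lower, ribosome biogenesis factors 1 higher and 37 lower, and translation factors 14 higher and 10 lower. Oxidative phosphorylation had 42 higher and 1 lower, the mitochondrial genome 13 higher, and the oligodendrocyte markers 2 higher. Astrocyte markers had 2 higher and 1 lower, and microglia markers 0 higher and 4 lower. As a percent of counts, mitochondrial ribosomal proteins lay below every library of the group outside the set in 15 of 16. Under TMM without the library labelled WT 92, mitochondrial ribosomal proteins had 27 higher and 7 lower, and ribosome biogenesis factors 7 higher and 14 lower. Across the 80 members, the difference had a correlation of -0.154 with the log10 length of the longest annotated transcript. That form may not be the one expressed, and members share libraries and scaling. The part of library preparation, RNA quality and counting in these differences was not tested.

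**Figure D2:**
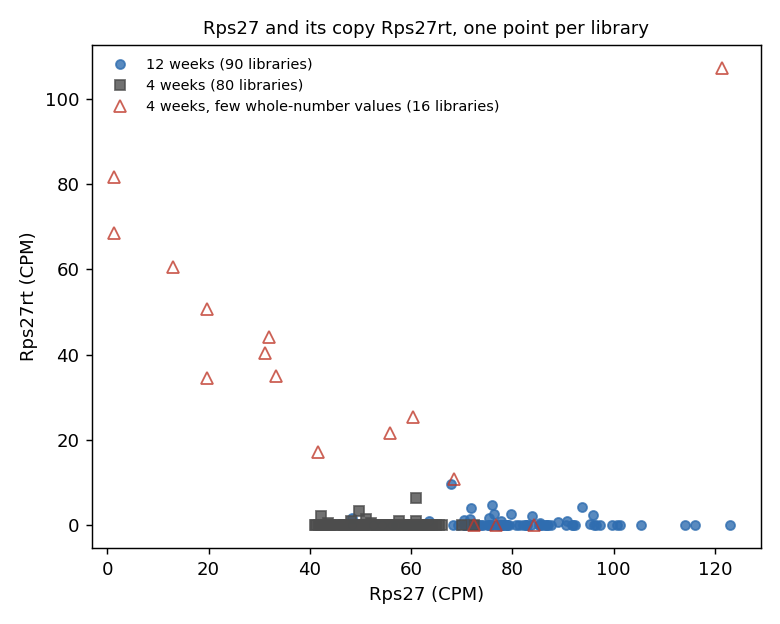
CPM of Rps27rt against CPM of Rps27, 1 point per library, with the 16 low-whole-number libraries marked. Among the other 170 libraries Rps27rt took at most 12.5% of the pair, while in 2 marked libraries it took over 98%.

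Near-identical gene copies affected a few members, and Rps27 was the plainest case. Rps27 encodes a zinc-finger protein of the small subunit, and Rps27rt is a retrotransposed copy that shares 27.4% of its 31-base words. Rps27rt took 0% of the pair's CPM in 143 of the 170 libraries outside the set, and at most 12.5%. Its share was above that maximum in 13 of the 16 low-whole-number libraries and was 0 in the other 3. In the KO library of HP numbered 51, Rps27 was at 1.39 CPM and Rps27rt at 81.6 CPM. The HET library of PFC numbered 941 had 1.26 CPM of Rps27 and 68.4 CPM of Rps27rt. The sum of both was above every other library of the group outside the set in 16 of 16, whereas Rps27 alone was below every such library in 9 of 16. Values of Rps27 at 4 weeks therefore depend on the split between both copies.

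Copies in the table were examined by the share of 31-base words that each member's GENCODE M21 transcripts hold in common with another gene. The median was 23.5% over all annotated genes and 1.36% over genes of the table. Of 24 tested members with over 10% of words in another gene of the table, 19 had a copy at or under 5% of the pair's counts in the median library of both sets. The other 5 were Rpl10 with Rpl10-ps3 (70.5% of the pair in the median library outside the set), Rpl27 with Rpl27-ps3 (88.7%), Rps12 with Rps12-ps3 (51.4%), Rpl35 with Gm2000 (47.6%) and Rps27 with Rps27rt. Values of these 5 members are uncertain, since estimated counts can be split between the copies.

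Members moved together from library to library. After removal of each group's mean, the median correlation of a member with the mean of the others was 0.949 over 186 libraries, and 70 of 80 members exceeded 0.8. The members below 0.5 were Rpl3l, Rps27, Rpl27 and Rpl7l1. Without the library labelled WT 92 the median was 0.927. These points share libraries and scaling factors, and the correlations are descriptions. The mean of the members had a correlation of 0.88 with that of oxidative phosphorylation genes, 0.86 with translation factors and 0.36 with ribosome biogenesis factors. That last value was -0.006 without the library labelled WT 92.

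The comparison of KO with WT asked whether loss of Akap11 changed the members in any region or age. With edgeR's quasi-likelihood test, 0 of 80 members passed an adjusted p of 0.05 in each of the 12 comparisons, and DESeq2 also called 0. Of all genes tested at 4 weeks, 0.0125% were called in PFC, 0.0564% in SSC, 0.00609% in HP, 3.35% in STR, 0.0128% in TH and 0.00617% in SN. At 12 weeks the shares were 0.0123% in PFC, 0.0252% in SSC, 0.00608% in HP, 4.42% in STR, 0.0064% in TH and 0.0364% in SN. In STR, where 516 genes passed at 4 weeks and 691 at 12 weeks, none was a member. At an unadjusted p under 0.05, 1 member was higher in HP, 7 were lower in STR and 3 were lower in TH at 4 weeks, with 0 in the other 3 regions. Of all genes, 2.81%, 8.01% and 8.29% passed in those directions. At 12 weeks, 2 were higher in SSC and 3 in STR, 2 were lower in HP and 1 in TH, with 0 in PFC and SN. The shares of all genes were 1.98%, 7.20%, 1.48% and 3.39%.

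The members' medians differed in sign between regions at both ages. At 4 weeks the median log2 fold change of the 80 members, KO over WT, was -0.05 in PFC, 0.03 in SSC, 0.08 in HP, -0.12 in STR, -0.07 in TH and -0.49 in SN. At 12 weeks it was 0.02 in PFC, 0.10 in SSC, -0.04 in HP, 0.07 in STR, -0.02 in TH and 0.08 in SN. The median over all genes tested lay between -0.02 and 0.01 in these comparisons. TH was negative and SSC positive at both ages. Averaged over the 6 regions with all libraries, 79 of 80 members were negative at 4 weeks (median -0.11, from Rps27a at -0.26 to Rps27l at 0.05), and 75 of 80 were positive at 12 weeks (median 0.03, from Rpl3l at -0.29 to Rpl39 at 0.09). As members share libraries, these counts are not independent readings. Leaving out 1 library turned the 12-week median in PFC to -0.02 (without KO 2) or -0.01 (without WT 3) and that in TH to 0.01 (without KO 3). At 4 weeks it turned SSC to as low as -0.05 (without KO 12), while without WT 914 the SSC median was 0.16. The STR median was -0.05 without WT 92 of STR.

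Without the 16 low-whole-number libraries, the 4-week median was negative in TH and positive in the other 5 regions. It was 0.05 in PFC, 0.04 in SSC, 0.02 in HP, 0.03 in STR, -0.07 in TH and 0.12 in SN, and 68 of 80 members had a positive mean over the regions (median 0.03). Scaling by library totals with all libraries kept also turned the sign in PFC (0.05), while SN stayed negative (-0.23). With the set as a covariate in place of leaving it out, the medians were 0.03 in PFC, 0.03 in SSC, 0.01 in HP, -0.04 in STR, -0.07 in TH and -0.06 in SN. Of the 4-week groups compared, the set held 1 WT and 0 KO libraries in PFC, 2 and 2 in SSC, 0 and 1 in HP, 2 and 1 in STR, 0 and 0 in TH, and 2 and 0 in SN. In SN, leaving out only the library labelled WT 92 moved the median from -0.49 to 0.03. In PFC, leaving out the WT library numbered 914 moved the median from -0.05 to 0.05. A further alternative left out 11 libraries at 4 weeks in SN, TH and STR whose region markers or Akap11 level stand apart, the library labelled WT 92 among them. It gave -0.17 in SN, -0.01 in TH and -0.06 in STR.

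**Figure D3:**
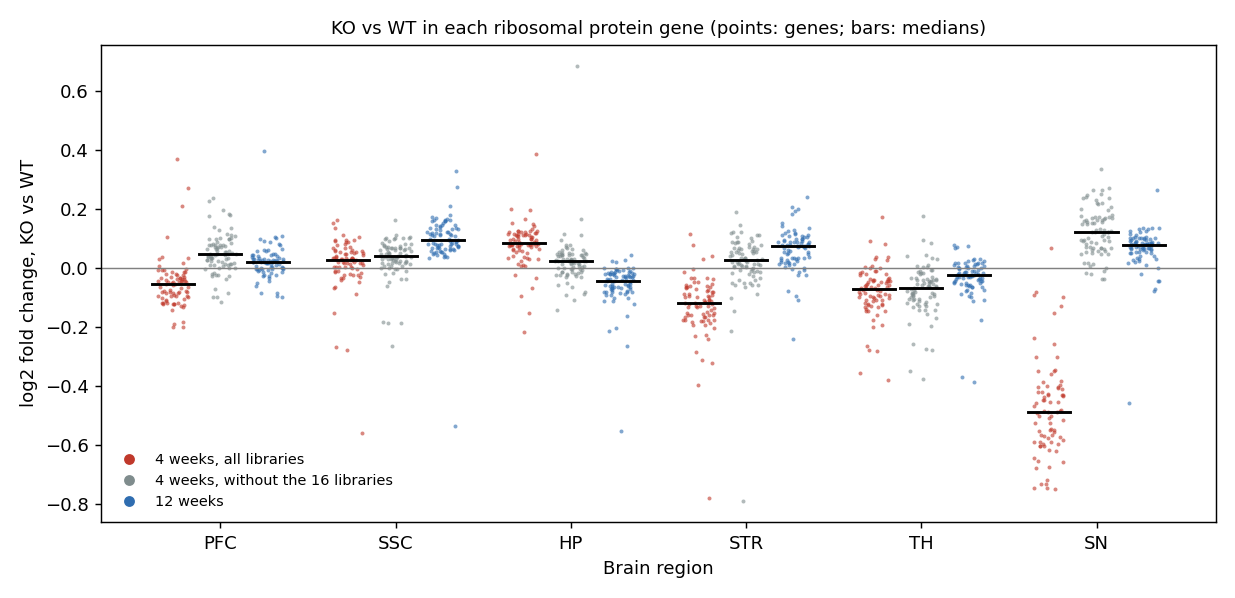
log2 fold change of KO over WT for each of the 80 tested ribosomal protein genes by region, at 4 weeks, at 4 weeks without the 16 libraries, and at 12 weeks; bars mark medians. The 4-week points of SN have a median of -0.49 with all libraries and 0.12 without the 16.

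SN at 4 weeks had the widest gap. Scores in WT were 6.32, 6.40, 6.44, 6.70, 6.88 and 8.23, of which the last 2 are low-whole-number libraries. In KO they were 6.43, 6.43, 6.47, 6.68 and 6.80, inside the range of WT.

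Rps6 shows the same by level. In SN at 4 weeks, Rps6 was at 167, 178, 183, 203, 278 and 640 CPM in WT and at 187, 187, 193, 218 and 248 CPM in KO. The KO values lay within the WT range, and the highest WT value was that of the library labelled WT 92. At 12 weeks Rps6 was at 232, 243, 248, 260 and 264 CPM in WT and at 259, 261, 266, 268 and 285 CPM in KO, and the groups overlapped. The log2 fold change of Rps6 was -0.44 ± 0.31 (SE) at 4 weeks and 0.09 ± 0.06 at 12 weeks, with adjusted p = 0.647 and 0.919 (edgeR). Without the library labelled WT 92 the 4-week value of Rps6 was 0.05.

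Single members by role follow. Among the stalk proteins, Rplp1 had a log2 fold change of -0.74 ± 0.36 in SN at 4 weeks (adjusted p = 0.643, edgeR) and 0.03 at 12 weeks, and Rplp0, the stalk's base, had -0.45 and 0.00. Rps27a was at -0.72 ± 0.42 in SN at 4 weeks and 0.08 ± 0.09 at 12 weeks. Without the library labelled WT 92, the 4-week values were -0.12 for Rplp1, 0.06 for Rplp0 and 0.10 for Rps27a. The lowest adjusted p of any member in a KO comparison was 0.124, for Rpl3l in STR at 4 weeks (-0.78 ± 0.26, edgeR). Rpl3l is at the edge of detection in these tissues. Rpl10, a late-joining protein next to the catalytic centre, had a log2 fold change of -0.37 ± 0.10 in TH at 12 weeks and missed the threshold (adjusted p = 0.489, edgeR). Rpl10 is among the members with uncertain splits between copies.

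The change of the KO effect between ages was tested directly in 1 fit per region. With edgeR, 0 of 80 members passed in each of the 6 regions, and of all genes tested the share called was 0% in each. At an unadjusted p under 0.05, 2 members were higher at 12 weeks in SSC and 2 in STR, 2 were lower in HP, and 0 passed in PFC, TH and SN. Of all genes, 1.6%, 2.13% and 1.29% passed in those directions. DESeq2 called 0 members as well. The median difference, KO effect at 12 weeks minus that at 4 weeks, was 0.09 in PFC, 0.08 in SSC, -0.13 in HP, 0.18 in STR, 0.06 in TH and 0.56 in SN. Without the 16 libraries it was -0.03 in PFC, 0.07 in SSC, -0.05 in HP, 0.05 in STR, 0.05 in TH and -0.05 in SN. For Rps6 in SN the difference was 0.51 ± 0.33 (adjusted p = 0.638, edgeR), and for Rps29 it was 0.78 ± 0.38 (adjusted p = 0.636, edgeR). Without the library labelled WT 92 these were 0.05 and 0.22, and the SN median was 0.06. Without WT 914 the median was -0.02 in PFC and -0.04 in SSC.

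HET libraries were compared with the same WT libraries, so both sets of values share their controls. With edgeR, 0 of 80 members passed in each of the 12 comparisons. Of all genes tested, the share called at 4 weeks was 0.00626% in PFC, 0.00627% in SSC, 0% in HP, 0.00648% in STR, 0.00639% in TH and 0% in SN. At 12 weeks it was 0.00613% in PFC, 0.00629% in SSC, 0.00608% in HP, 0.0064% in STR, 0.0064% in TH and 0.00606% in SN. The members' median log2 fold change at 4 weeks was -0.11 in PFC, -0.13 in SSC, -0.01 in HP, -0.14 in STR, 0.07 in TH and -0.42 in SN. At 12 weeks it was 0.02 in PFC, 0.09 in SSC, 0.00 in HP, -0.04 in STR, -0.19 in TH and 0.08 in SN. Without the 16 libraries the 4-week medians were -0.06 in PFC, 0.10 in SSC, -0.01 in HP, 0.04 in STR, -0.11 in TH and 0.05 in SN, so the sign turned in SSC, STR, TH and SN. Scaling by library totals turned it in SSC (0.01) and TH (-0.08), while STR (-0.03) and SN (-0.27) stayed negative. With the set as a covariate, the medians were 0.09 in SSC, 0.00 in STR, -0.12 in TH and -0.26 in SN. Leaving out only the library labelled WT 92 moved the SN median to 0.10, leaving out WT 914 moved that of SSC to 0.00, and leaving out HET 11 moved that of TH to -0.04. The 4-week and 12-week HP medians, which lie near 0, also turned sign in this way, as did PFC (-0.01 without WT 3) and STR (0.02 without HET 5) at 12 weeks. At an unadjusted p under 0.05, at 4 weeks 1 member was lower in PFC and in HP, 6 in STR, 1 was higher in SSC and in TH, and 0 passed in SN. In those directions the shares of all genes were 2.10%, 2.61%, 0.642%, 3.55% and 7.24%. At 12 weeks 4 were higher in SSC, 1 in SN and 56 lower in TH, with 0 in PFC, HP and STR. The shares of all genes were 0.717%, 2.23% and 4.93%.

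TH at 12 weeks was the HET comparison in which most members leaned the same way at an unadjusted threshold. Of 80 members, 79 had a negative log2 fold change, and the lowest adjusted p was 0.39 (edgeR). Scores were 6.51, 6.54, 6.60, 6.62 and 6.85 in HET and 6.74, 6.76, 6.77, 6.86 and 6.92 in WT. Of the 5 HET libraries 4 were below every WT library, and the fifth lay within the WT range. KO scores of 6.64, 6.75, 6.76, 6.79 and 6.97 overlapped both. None of these libraries belongs to the low-whole-number set.

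Rpl10 had the lowest p of the members there. Its levels were 39.8, 44.2, 48.0, 48.7 and 52.7 CPM in HET and 55.3, 60.7, 61.0, 68.3 and 77.2 CPM in WT, and the groups did not overlap. The log2 fold change was -0.47 ± 0.10 (adjusted p = 0.39, edgeR), and DESeq2 called it (adjusted p = 0.0105), its only call of a member in the 24 genotype comparisons. Its copy Rpl10-ps3 was at 87.0 to 117 CPM in HET and 81.3 to 107 CPM in WT, which overlap, so the split between both copies bears on this value. Of the 80 members, 3 did not overlap between HET and WT, all lower, against 1.31% of all genes tested.

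**Figure D4:**
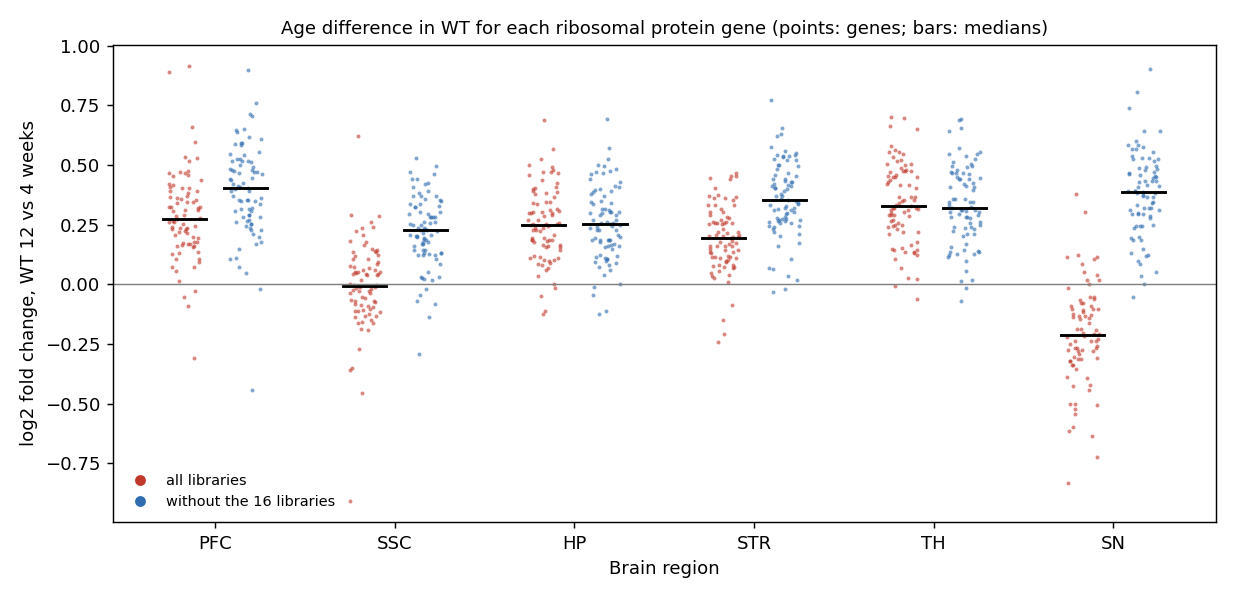
log2 fold change of 12 over 4 weeks in WT for each of the 80 tested ribosomal protein genes by region, with all libraries and without the 16 low-whole-number libraries; bars mark medians. Without the 16 libraries the medians lie between 0.23 and 0.40 in the 6 regions.

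Members were higher at 12 than at 4 weeks in WT in several regions. With all libraries, 40 of 80 passed as higher in PFC, 1 in SSC, 45 in HP, 20 in STR, 56 in TH and 0 in SN, while 3 passed as lower in SSC (edgeR). Of all genes tested, 8.89% were higher in PFC, 13.5% in SSC, 7.05% in HP, 9.12% in STR, 10% in TH and 6.86% in SN, and 13.7% were lower in SSC. The median log2 change of the members was 0.27 in PFC, -0.01 in SSC, 0.25 in HP, 0.19 in STR, 0.33 in TH and -0.21 in SN, whereas that of all genes lay between -0.02 and 0.02. Scaling by library totals turned the median positive in SSC (0.17) and SN (0.04). In SN, where 0 members passed, DESeq2 called 1, lower, and leaving out only the library labelled WT 92 gave 29. Leaving out 1 WT library moved the count to between 25 (without 23 at 4 weeks) and 65 (without 914) in PFC, and to between 7 (without 142 at 4 weeks or 4 at 12 weeks) and 32 (without 92 at 4 weeks) in STR. The shares of all genes in these alternatives are not given here.

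Without the 16 libraries the median change was positive in each of the 6 regions. The members called higher were 70 in PFC, 36 in SSC, 54 in HP, 55 in STR, 62 in TH and 60 in SN, and 0 were lower in each. The shares of all genes called higher in these fits were 9.87% in PFC, 11.3% in SSC, 7.92% in HP, 5.67% in STR, 9.91% in TH and 11.7% in SN. The members' medians were 0.40 in PFC, 0.23 in SSC, 0.25 in HP, 0.35 in STR, 0.32 in TH and 0.39 in SN. In these fits 28 members rose in 6 of 6 regions, 20 in 5, and 7 in none. The share of all genes that rose in as many regions is not given here, so these counts are not set against it.

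The 28 included small- and large-subunit genes, and a few changed more than the rest. Averaged over regions without the 16 libraries, Rps12 had the highest log2 change (0.70, higher in 4 regions), followed by Rps24 (0.66), Rpl31 (0.60), Rps27 (0.58) and Rpl23a (0.57), each of which rose in 6 of 6 regions. Rps12 and Rps27 are among the members with uncertain splits between copies. Rps24, a small-subunit protein altered in some patients with Diamond-Blackfan anaemia, was at 85.1, 90.0, 96.3, 102 and 128 CPM in PFC of WT at 4 weeks, the last from the low-whole-number library numbered 914. At 12 weeks Rps24 was at 141, 153, 156, 160 and 172 CPM. The ages did not overlap, and the log2 change of Rps24 with all libraries was 0.66 ± 0.10 (adjusted p = 2.58e-05, edgeR). In SN the log2 change of Rps24 was 0.11 ± 0.25 with all libraries and 0.81 without the 16 (adjusted p = 0.785 and 2.38e-06, edgeR).

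By role, and again as the mean log2 change without the 16 libraries, the stalk proteins differed among themselves. Rplp1 rose in 5 of 6 regions (0.46) and Rplp2, its partner, in 2 (0.19), while Rplp0 rose in 0 (0.07). Rplp0 in PFC of WT was at 112, 122, 125, 131 and 165 CPM at 4 weeks and at 121, 123, 135, 140 and 155 CPM at 12 weeks, and the ages overlapped. Rps6 (0.34) and both proteins of the 5S particle, Rpl5 (0.35) and Rpl11 (0.34), rose in 6 of 6 regions, and Rps19, a gene also mutated in Diamond-Blackfan anaemia, in 5 (0.31). Rpsa, also known as a laminin receptor, rose in 2 (0.27) and Rps27a in 3 (0.29). The members that rose in no region were Rplp0, Rps2 (0.02), Rpl29 (0.01), Rpl36 (0.07), Rpl27 (0.14), Rpl3l (0.21) and Rpl7l1 (-0.04). Whether the change of these members differs from that of the others was not tested. Rpl27 is among the members with uncertain splits between copies.

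HET and KO libraries were also compared between ages. With all libraries, members called higher in HET were 69 in PFC, 19 in SSC, 41 in HP, 39 in STR, 6 in TH (with 1 lower) and 1 in SN. Of all genes tested in HET, 7.34% were higher in PFC, 12.6% in SSC, 5.57% in HP, 7% in STR, 7.27% in TH and 2.86% in SN, and 8.27% were lower in TH. In KO the members called higher were 55 in PFC, 7 in SSC, 18 in HP, 59 in STR, 59 in TH and 0 in SN. The shares of all genes in KO were 5.49% in PFC, 12.1% in SSC, 9% in HP, 11.5% in STR, 11.4% in TH and 3.38% in SN. The 3 genotypes shared 38 called members in PFC, 1 in SSC, 18 in HP, 19 in STR, 6 in TH and 0 in SN. Without the 16 libraries, Rps24, Rps6, Rps27, Rps29 and Rpl26 were among the members higher in each of the 18 combinations of region and genotype. The shares of all genes for these overlaps are not given here, so the overlaps are not set against them.

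Other gene groups and cell markers moved between ages in the same WT libraries. These values include the low-whole-number libraries, in which several of these groups also differed. Values without that set are not given here, so they cannot be set against the members' counts without it. Of 77 mitochondrial ribosomal proteins, 22 were higher in PFC, 37 in SSC, 23 in HP, 37 in STR and 29 in TH, with 0 in SN. Of 61 oxidative phosphorylation genes, 6 were higher in PFC, 3 in SSC, 19 in HP, 9 in STR, 30 in TH and 1 in SN. Of 39 translation factors, 3 to 10 were higher in a region. Of 10 oligodendrocyte markers, 3 were lower in PFC, 8 in SSC, 9 in HP, 9 in STR, 8 in TH and 9 in SN, with a median log2 change from -1.46 in SN to -0.80 in SSC. Neuron markers of neighbouring regions also moved, with a median of -4.73 for the 9 cortical and hippocampal excitatory markers in STR (6 lower). For the 8 thalamic markers in HP it was -1.83 (8 lower). The 8 dopamine neuron markers, which belong to SN itself, had a median of 1.82 in SN (5 higher). Over all genotypes, their mean log2(CPM + 1) in SN ran from 2.59 to 8.06 at 4 weeks and from 7.27 to 8.32 at 12 weeks. The part of cell makeup, myelin and dissection in the age change of the members was not tested. The ages come from different animals, and age and sample preparation cannot be told apart.

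**Figure D5:**
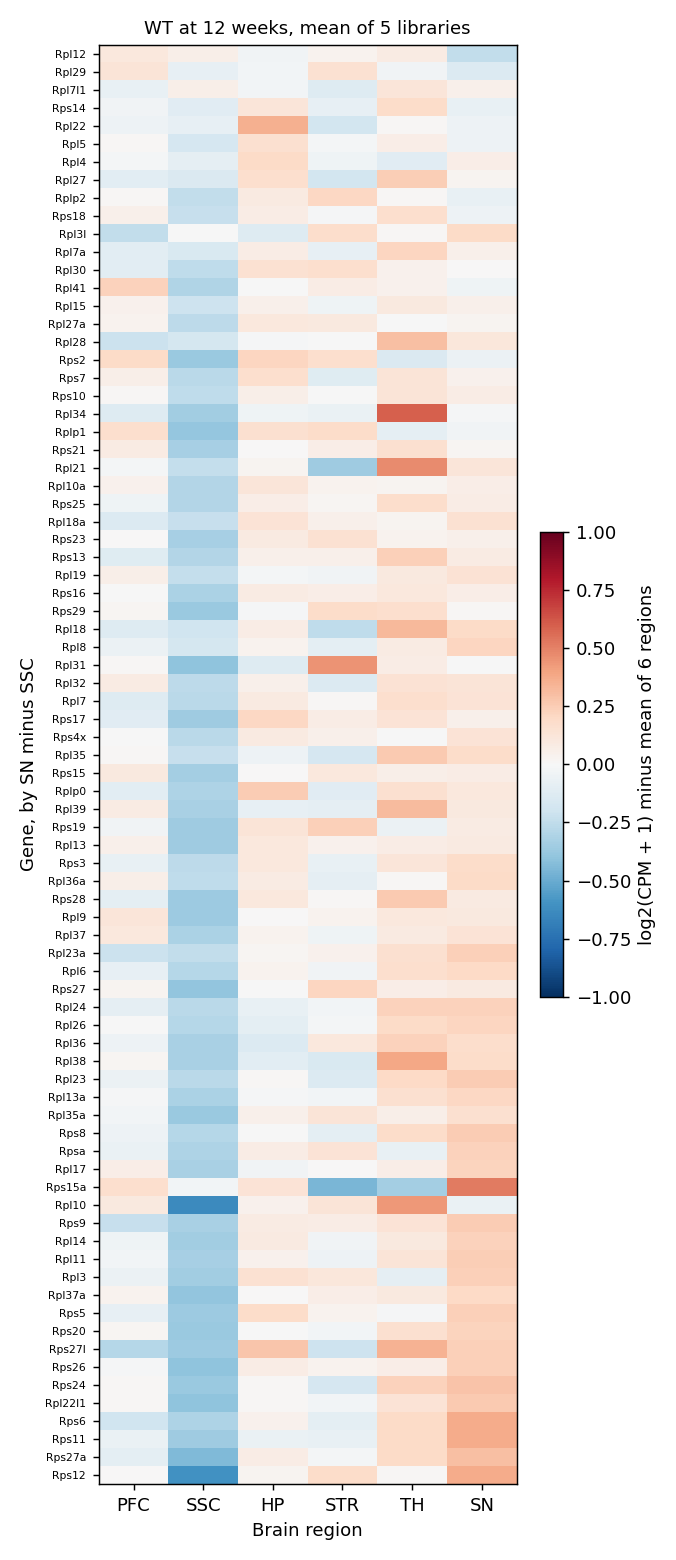
Level of the 80 tested ribosomal protein genes in each region of WT at 12 weeks, as log2(CPM + 1) minus the gene's mean over the 6 regions. Values are lowest in SSC for 69 of 80 genes.

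Regions differed in the members' levels. In WT at 12 weeks 80 of 80 members passed the test over the 6 regions, against 93.4% of all genes tested (edgeR). At 4 weeks 38 of 80 passed, against 85.6% of all genes tested, and 65 passed without the 16 libraries. The share of all genes in the fit without the 16 is not given here, so 65 cannot be read against it. At 12 weeks SSC was lowest for 69 of 80 members, and the highest region was SN for 32, TH for 25, HP for 10, STR for 10 and PFC for 3. The median range between the lowest and the highest region mean was 0.52 on the log2(CPM + 1) scale, from 0.25 for Rpl7l1 to 1.07 for Rpl10. The value of Rpl10 depends on its uncertain split with a copy. Over libraries outside the low-whole-number set and all genotypes, the median score at 12 weeks was 6.45 in SSC, 6.67 in STR, 6.69 in PFC, 6.70 in HP, 6.76 in TH and 6.86 in SN. At 4 weeks it was 6.25 in PFC, 6.26 in SSC, 6.37 in STR, 6.44 in TH, 6.47 in SN and 6.49 in HP. Neighbours in these orders lie close together, and their differences were not tested.

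Single members differed in their order over regions. Rps15a was at 145, 148, 148, 155 and 156 CPM in SN of WT at 12 weeks and at 69.6, 72.9, 76.6, 76.8 and 83.7 CPM in STR, and the groups did not overlap. Rpl34 was highest in TH, at 89.4, 91.5, 92.7, 93.9 and 99.1 CPM, and lowest in SSC, at 36.9, 43.3, 49.4, 50.4 and 60.1 CPM. Rpl22, a large-subunit protein that mice can live without, stood highest in HP, 0.35 above its mean over regions on the log2(CPM + 1) scale, and lowest in STR, 0.18 below it. Rps6 followed the common order, highest in SN (0.37) and lowest in SSC (-0.31), whereas Rplp1 was highest in STR (0.18) and lowest in SSC (-0.39).

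Levels between genes were compared per kilobase of the longest annotated transcript, as the mean over regions of WT at 12 weeks. These lengths ran from 383 to 5179 bases. Whether the longest form is the one expressed was not examined, so the levels and their order depend on the annotation. The median member was at 108 CPM per kilobase, and 44 of 80 were above 100. Rplp1 was highest at 465 CPM per kilobase, followed by Rps29 at 346 and Rps15, a small-subunit protein, at 309. The paralogs were lower than their subunits. Rpl3l was at 0.276 CPM per kilobase against 212 for Rpl3, and Rpl7l1, a ribosome assembly factor related to Rpl7, at 14.4 against 118 for Rpl7. Rps27l was at 9.77 against 116 for Rps27, and Rpl22l1 at 17.3 against 31.9 for Rpl22, the smallest gap of these pairs.

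Rpl22l1 and Rpl22 differed in their order over regions. At 12 weeks in WT, Rpl22l1 was at 28.7, 38.9, 42.4, 42.7 and 43.8 CPM in SN and at 18.4, 20.9, 25.3, 25.7 and 31.9 CPM in SSC. The lowest SN value lay within the SSC range. Rpl22l1 was highest in SN (0.26 above its mean on the log2(CPM + 1) scale), whereas Rpl22 was highest in HP. Both rose with age without the 16 libraries, Rpl22l1 in 5 regions (mean log2 change 0.32) and Rpl22 in 4 (0.18). In KO, 0 of the 4 tested paralogs passed in any of the 12 comparisons with edgeR or DESeq2.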

How the data were processed

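The authors deposited expected counts, estimates by gene that can hold fractions, as a single table. Per the submitters' processing notes, Salmon and the mouse build mm10 were used, while the sources used here do not name the Salmon version, the annotation or a strand setting. Of the values above 0, 77.9% were not whole. The labels' protocols describe cryostat dissection of frozen brains, column purification of RNA (RNeasy Mini) and TruSeq Stranded mRNA libraries from 200 ng. No molecular identifiers are named, so counts of amplified reads are not counts of molecules.

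Counts were rounded and fitted with edgeR 4.0.16 in R 4.3.3 (TMM, filterByExpr, glmQLFit, glmQLFTest). Genotypes were compared within each region and age, ages within each region, and regions within WT at each age. Benjamini-Hochberg adjustment ran over all genes tested in a comparison, and calls were made below 0.05. A standard error is the log2 fold change divided by the square root of F. CPM values in the text are TMM-scaled over all 186 libraries, a member score is the mean log2(CPM + 1) of 80 members, and a pseudocount of 1 was used wherever values are given as log2(CPM + 1). The scripts were checked on simulated data. DESeq2 1.42.0, other scalings, no filter, covariates and leaving out libraries were the alternatives. Chi-square per degree of freedom was at least 7.97 in 390 replicate pairs, and each library counted as 1 sample. The labels do not say that libraries of a group came from separate animals, so p-values measure the spread between libraries, which may be partly technical.

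The members, gene lists and tests were chosen with earlier results of these data known. Akap11 was named first. Members were named when called in the most KO comparisons, when among the 4 highest or lowest mean KO changes at each age, when among the 5 widest region ranges or largest WT age changes, or by role (the stalk, Rpsa, Rps6, Rpl5, Rpl11, Rps27a, Rps19, Rpl10 and the paralogs). Rps27rt, Rps2, Rpl29, Rpl36, Rpl26, Rpl27, Rps15, Rpl3, Rpl7, Rpl35 and other members outside this rule were chosen after their values were seen. Of the other lists, the genes the rule named in KO comparisons are given with the closing observations. One of the gene lists is not reported here.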

Additional observations from a re-analysis of the deposited data

Results flagged for a closer look

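Within each of the 36 groups, the member score and the members' percent of counts were tested for a library far from the others, which chance marks in about 1 of 20 tests. Of the 72 tests, 4 marked a library, each the highest of its group and each a low-whole-number library at 4 weeks. In SN, the library labelled WT 92 had a score of 8.23, and the members took 2.45% of its counts. In PFC, the HET library numbered 941 had a score of 6.50. In SSC, the WT library numbered 914 had 0.914% of its counts in the members.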

How the results depend on the processing

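The count of 0 members called held in 620 of 621 alternatives run for the KO, HET and KO-by-age comparisons, the exception being 1 member, Rpl10, with DESeq2 in HET against WT in TH at 12 weeks. The counts of the age comparisons moved most. With library totals as the only scaling, an alternative chosen after seeing the data, the WT counts were 69 in PFC, 32 in SSC, 62 in STR and 1 in SN, the HET counts 47 in SSC, 34 in TH and 19 in SN, and the KO counts 50 in SSC, 37 in HP and 13 in SN. Under that scaling the median of all genes shifted by up to 0.12 in KO against WT at 4 weeks (SN) and lay at -0.38 for the low-whole-number libraries, where Rpl22 (-0.12 against 0.19) and Rps15a (-0.10 against 0.21) changed sign. Without the 16 low-whole-number libraries the WT counts were 70, 36, 55 and 60 in PFC, SSC, STR and SN, the HET counts 46, 36 and 56 in SSC, TH and SN, and the KO counts 50, 40 and 57 in SSC, HP and SN. Without 11 libraries at 4 weeks whose region markers or Akap11 level stand apart, chosen after seeing the data, the WT counts were 32 in STR and 15 in SN, the HET count 28 in SN, and the KO counts 37 in STR and 56 in SN. DESeq2 gave 1 in SN of WT and 3 in SN of KO, relative log expression factors gave 2 in SSC of KO, and no low-count filter gave 4 in TH of HET. The regional test at 4 weeks gave 65 with library totals, 65 without the 16 libraries and 22 without the 11. Except for the WT counts without the 16 libraries, these age and regional counts have no share of all genes beside them. The counts with 1 library left out, given next, have none either. They cannot be read against such a share. The cause of the moved counts was not tested.

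Leaving out 1 library at a time gave 25 (without WT 23) to 65 (without WT 914) members in PFC of WT, 2 (WT 142) to 9 (WT 914) in SSC, 7 (WT 142) to 32 (WT 92 of STR) in STR, with 8, 13, 10 and 7 without WT 42, 913, 3 and 4, and 0 to 29 (the library labelled WT 92) in SN. In HET it gave 8 to 25 in SSC (8 without 4 and 10 without 5 at 12 weeks), 21 to 46 in STR (21 without 4 at 12 weeks), 3 to 30 in TH (30 without 11, 3 without 93 and 4 without 162, 22 or 931 at 4 weeks, 3 without 4 at 12 weeks) and 1 to 2 in SN. In KO it gave 1 to 12 in SSC, where 9 of 10 libraries moved the count of 7 by over 1.5 times, 9 to 40 in HP (40 without 51 and 9 without 163 at 4 weeks, 10 and 11 without 1 and 4 at 12 weeks) and 0 to 1 in SN, and the regional test at 4 weeks gave 23 (without the library labelled WT 92) to 58 (without WT 42 of SN). The replicate numbers at 12 weeks are shared between groups. Same-numbered libraries had correlations from -0.27 to 0.75 over 90 pairs, 62 of them above 0.1 and 48 best with their own number. That is a hint from the data that numbers may pair libraries, not from the design, since the labels do not say what a number marks. With a replicate block, 0 members passed in each KO and HET comparison at 12 weeks, and 39 and 80 in the regional tests. In HET against WT in TH at 12 weeks, where HET scores lay below those of the same-numbered WT library by 0.06 to 0.32, the block gave a lowest adjusted p of 0.0655 (edgeR) against 0.39 without it. Depth was at least 20.8 M counts per library, and the low level of Rpl3l limits its values.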

Other observations

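Genes of the other lists passed in KO against WT in STR, the region with the most calls. Rgs9, a striatal regulator of G protein signalling, fell by 0.49 ± 0.08 (SE, log2) at 12 weeks and Rarb, a retinoic acid receptor of striatal neurons, by 0.37 ± 0.07, with adjusted p = 0.00178 and 0.00442 (edgeR). At 4 weeks Aqp4, the astrocyte water channel, fell by 0.58 ± 0.12 and C1qb, a complement gene of microglia, by 0.30 ± 0.07, with adjusted p = 0.0139 and 0.0298 (edgeR). KO and WT did not overlap for Rgs9 and Rarb but overlapped for Aqp4 and C1qb. Of the striatal neuron markers, 3 of 13 were lower and 1 higher at 12 weeks, and at 4 weeks 1 of 8 astrocyte and 2 of 8 microglia markers were lower. In the same 2 comparisons 0 ribosomal protein genes passed. The 4-week comparison in STR includes 2 WT and 1 KO low-whole-number libraries, and astrocyte and microglia markers also moved in that set. Values of Aqp4, C1qb and the marker counts without these libraries are not given here. Rpl41 had a copy, Gm10076, that took 4.77% of the pair in the median low-whole-number library and 0.0478% in the median of the others.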
